A study of Homo sapiens with 18 samples.

Results

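The WNT pathway genes were examined as 47 members, namely 18 WNT ligands, 10 Frizzled receptors, 2 LRP co-receptors, 6 secreted inhibitors, 5 feedback and membrane regulators and 6 nuclear factors. Their chromatin accessibility was read from ATAC-seq, an assay in which a transposase inserts sequencing adapters into open DNA. The deposited table gives FPKM, which are fragments scaled to window length and to the reads of a library, in genomic windows of about 1 kb. A window was taken as a WNT window when it overlapped the annotated span of a member gene extended by 10 kb on each side. This rule, which uses position and no measured value, found 253 of the 89428 windows, near 46 of the 47 genes. WNT1 had no window and is not analysed here. Of the 253 windows, 51 were promoter windows of a member, with the centre between 1000 bp upstream and 100 bp downstream of an annotated transcript start. A further 193 were distal and 9 were promoter windows of another gene lying nearby. For 37 members a window held the start of the canonical transcript, called the start window here. The centre of 16 of these 37 lay more than 100 bp past the start, so that they count among the distal windows.

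The 18 libraries came from 6 established human ovarian cancer cell lines, 3 libraries each, arranged as 3 pairs in which the first line responds to platinum drugs and the second resists them. A2780 is the sensitive parent of CP70, which was selected in culture with cisplatin, and the labels name its tissue as endometrial/ovarian. PEA1 and PEO1 are high-grade serous lines labelled clinically sensitive, and PEA2 and PEO4 are the clinically resistant lines of the same 2 patients. All were grown in RPMI with fetal bovine serum, with no drug named for the assayed cultures. Each line is a single model, so a difference within a pair is a difference between 2 lines, and resistance cannot be told apart from any other way in which they differ. The labels do not say whether the 3 libraries of a line came from separate cultures, so p-values measure the spread between these libraries only.

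As background, WNT proteins are secreted lipid-modified ligands that bind Frizzled receptors together with the co-receptors LRP5 and LRP6. In the canonical branch this stops the destruction complex, built on AXIN and APC, from degrading β-catenin, the product of CTNNB1, which then enters the nucleus and switches target genes with the TCF and LEF factors. In the absence of β-catenin, Groucho proteins such as TLE4 sit on the same factors and repress. DKK and SFRP proteins block the receptors or bind the ligands outside the cell, RNF43 and ZNRF3 clear Frizzled from the cell surface, LGR5 receives R-spondins, and AXIN2 is itself a target that feeds back on the pathway. In ovarian cancer WNT signalling has been studied in endometrioid tumours with CTNNB1 mutations and, in serous tumours, in relation to stem-like properties.

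The steps between FPKM values imply library totals of 8963079 to 60435027 reads. Between 8.38% and 15.6% of reads fell in the windows of the table in A2780 and CP70, 12.9% to 20.7% in PEA1 and PEA2, and 32.9% to 40.8% in PEO1 and PEO4. The median promoter window measured 1.64 to 2.60 FPKM in the other 4 lines and 5.81 and 5.51 in PEO1 and PEO4. Beside a level the percentile is therefore given, which is the share of the 16997 promoter windows of the table with a lower mean in the same line. Cell line checks rested on 9 of 15 marker genes with a start window. PAX8, EPCAM, KRT7, KRT8, KRT18 and CDH1, markers of Müllerian epithelium and of epithelium in general, stood below the 20th percentile in A2780, at 0.61 to 0.90 FPKM, and PAX8, EPCAM and CDH1 also did in CP70. In PEA1 EPCAM, KRT7 and CDH1 stood below it as well, at the 13.5th, 6.58th and 11.5th percentile, while PAX8 stood at the 65.0th. In PEO1 all 6 lay between the 25.1st and 77.1st percentile. Of the remaining markers, SOX17 and MECOM stood at the 19.1st and 18.5th percentile in A2780 and WT1 at the 28.0th. In PEO1 WT1 stood at the 88.6th and MECOM at the 58.8th, but SOX17 at the 2.65th. In PEO4 SOX17 stood at the 2.67th and MECOM at the 9.91st. Markers of blood, endothelium and stroma (PTPRC, CD3E, CDH5, COL1A1, DCN) had no start window.

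Sequences of the windows on which the results below turn were read from the GRCh37 (hg19) reference, plus strand, 5′ to 3′, within introns or between genes. Capitals mark letters of the TCF/LEF motif (CTTTGAT or CTTTGAA, or their reverse complements) and of the AP-1 motif (TGANTCA). The first window, chr1:228122100-228123100 in intron 1 of WNT9A, is shown because a run of AP-1 letters recurs through it. The stretch is chr1:228122470-228122769.
WNT9A intron: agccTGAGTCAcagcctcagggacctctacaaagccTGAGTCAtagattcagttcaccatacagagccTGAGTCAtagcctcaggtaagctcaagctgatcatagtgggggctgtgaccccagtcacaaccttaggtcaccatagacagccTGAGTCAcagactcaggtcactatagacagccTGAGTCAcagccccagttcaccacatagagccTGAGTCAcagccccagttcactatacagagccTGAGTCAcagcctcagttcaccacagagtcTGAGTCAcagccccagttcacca
The whole window held 15 AP-1 matches, 11 of the 14 spacings between them being 29 to 32 bases, and 6 of the 89428 windows of the table held as many or more. These letters recur as in a tandem repeat, and how reads were placed within it was not tested.

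Further stretches come from windows that changed in PEA2 or PEO4 or set a line apart, except AXIN2 intron 1, shown for its motif letters. They are chr22:46307241-46307360 (WNT7B, opposite changes in the 2 pairs), chr17:63516141-63516260 (AXIN2, open in PEO4), chr17:63556840-63556939 (AXIN2 intron 1, holding a pair of TCF/LEF matches), chr10:54079110-54079234 (DKK1), chr12:1650095-1650194 (WNT5B), chr7:116909620-116909719 (WNT2), chr10:114805545-114805624 (TCF7L2 intron 5, open in PEA2), chr9:82239370-82239494 (TLE4 intron 5) and chr3:41309660-41309789 (downstream of CTNNB1, within ULK4).
WNT7B downstream: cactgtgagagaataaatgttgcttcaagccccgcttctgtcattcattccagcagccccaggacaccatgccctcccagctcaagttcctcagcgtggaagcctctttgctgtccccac
AXIN2 downstream: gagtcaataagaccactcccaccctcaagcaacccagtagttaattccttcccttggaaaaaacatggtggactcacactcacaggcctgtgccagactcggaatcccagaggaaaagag
AXIN2 intron: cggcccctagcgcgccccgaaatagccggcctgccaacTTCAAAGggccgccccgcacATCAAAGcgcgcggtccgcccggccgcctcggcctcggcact
DKK1 downstream: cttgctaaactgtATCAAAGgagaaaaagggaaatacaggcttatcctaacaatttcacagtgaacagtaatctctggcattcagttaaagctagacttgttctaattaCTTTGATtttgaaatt
WNT5B upstream: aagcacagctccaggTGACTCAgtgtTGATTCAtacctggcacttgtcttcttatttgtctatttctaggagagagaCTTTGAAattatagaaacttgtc
WNT2 downstream: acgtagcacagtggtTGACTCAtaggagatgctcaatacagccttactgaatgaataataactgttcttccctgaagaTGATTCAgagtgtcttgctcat
TCF7L2 intron: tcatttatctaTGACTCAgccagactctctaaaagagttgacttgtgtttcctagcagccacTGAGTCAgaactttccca
TLE4 intron: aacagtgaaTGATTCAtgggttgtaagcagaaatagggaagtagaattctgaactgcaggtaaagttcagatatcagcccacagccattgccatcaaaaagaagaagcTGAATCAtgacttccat
CTNNB1 downstream: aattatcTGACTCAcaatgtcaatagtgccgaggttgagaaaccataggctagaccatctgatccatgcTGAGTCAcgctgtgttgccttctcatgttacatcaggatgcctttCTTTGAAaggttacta
Neither motif occurred in the whole WNT7B and AXIN2 downstream windows. The share of windows with a TCF/LEF match was 33.3% of the 51 WNT promoter windows and 24.9% of the 193 distal ones, beside 18.3% of all 16997 promoter windows and 27.5% of the 72431 others. An AP-1 match occurred in 13.7% of the WNT promoter windows and 32.1% of the distal ones, beside 17.1% and 43.3% in the table. WNT promoter windows had a median GC content of 62.3%, against 58.6% for all promoter windows. A match is only a run of letters and was not tested as a binding site.

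At their start sites Frizzled genes held the 6 highest means over the lines, and most ligands were weakly open. FZD4, whose receptor binds Norrin as well as WNT ligands, had the highest mean over the 6 lines of all 37 start windows. It measured 5.07, 5.95 and 4.76 FPKM in A2780, 13.9, 10.0 and 7.92 in CP70, 7.53, 9.13 and 6.62 in PEA1, 14.2, 7.23 and 10.4 in PEA2, 50.5, 50.3 and 53.2 in PEO1, and 31.6, 32.8 and 30.9 in PEO4. Every line placed it at or above the 96.5th percentile of promoters. Contrasts between neighbouring lines came from the limma fit over all 6 lines, which shares a single estimate of spread across the 18 libraries. In the order from A2780 up to PEO1, the neighbours PEA1, PEA2 and CP70 did not differ beyond that spread (adjusted p = 0.13 and 0.97). PEO4 and PEO1 did differ (adjusted p = 0.010), and in the limma fit of their pair alone the adjusted p was 2.7e-09. FZD5 ranked next, at the 97.1st to 99.2nd percentile, and FZD7 kept to a narrow band between 89.7 and 91.4 in all 6 lines. FZD1 ranged from the 89.3rd to the 97.7th and FZD8 from the 87.8th to the 99.3rd percentile. FZD6 was split by line, at the 61.4th and 60.5th percentile in A2780 and CP70 and at the 90.2nd or above in the 4 serous lines. By the mean over the 6 lines FZD9 and FZD10 were the least open receptors, at 2.41 and 1.93 FPKM. The order depended on the line, since in PEA2 FZD10 stood at the 68.5th percentile, above FZD2 at the 18.1st and FZD3 at the 31.7th.

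Among the 12 ligands with a start window, WNT9A had the highest mean, from 3.65 FPKM in A2780 to 6.40 in PEO4. By percentile the order of lines differed, from the 40.2nd in PEO1 and the 55.7th in PEO4 up to the 88.5th in A2780. WNT3, WNT6 and WNT9B stayed below the 30th percentile in all 6 lines. Among nuclear factors TLE4 stood at the 84.5th to 99th percentile and TCF7L2 at the 76.1st to 90.3rd, while TCF7 ranged from 42.8 in PEO1 to 92.3 in PEA1. β-catenin's own gene CTNNB1 stood between the 71st and 93.7th percentile. Of the 3 secreted inhibitors with a start window, SFRP4 ranged from the 10.97th percentile in PEO4 to the 79.2nd in PEA2, and SFRP1 stayed between the 18.8th and 47.9th. DKK1, an antagonist of LRP5 and LRP6, measured 16.3, 16.8 and 15.4 FPKM in PEO1 and 5.81, 6.05 and 6.77 in PEO4, against at most 2.02 in any library of A2780, CP70 and PEA1 and 0.64 to 0.71 in PEA2. Libraries of the PEO lines lay above all 12 others, and the percentile of this window ran from 4.10 in PEA2 to 88.1 in PEO1. CXXC4, whose product binds Dishevelled, was among the lowest, under the 6th percentile in CP70, PEA2, PEO1 and PEO4.

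**Figure D1:**
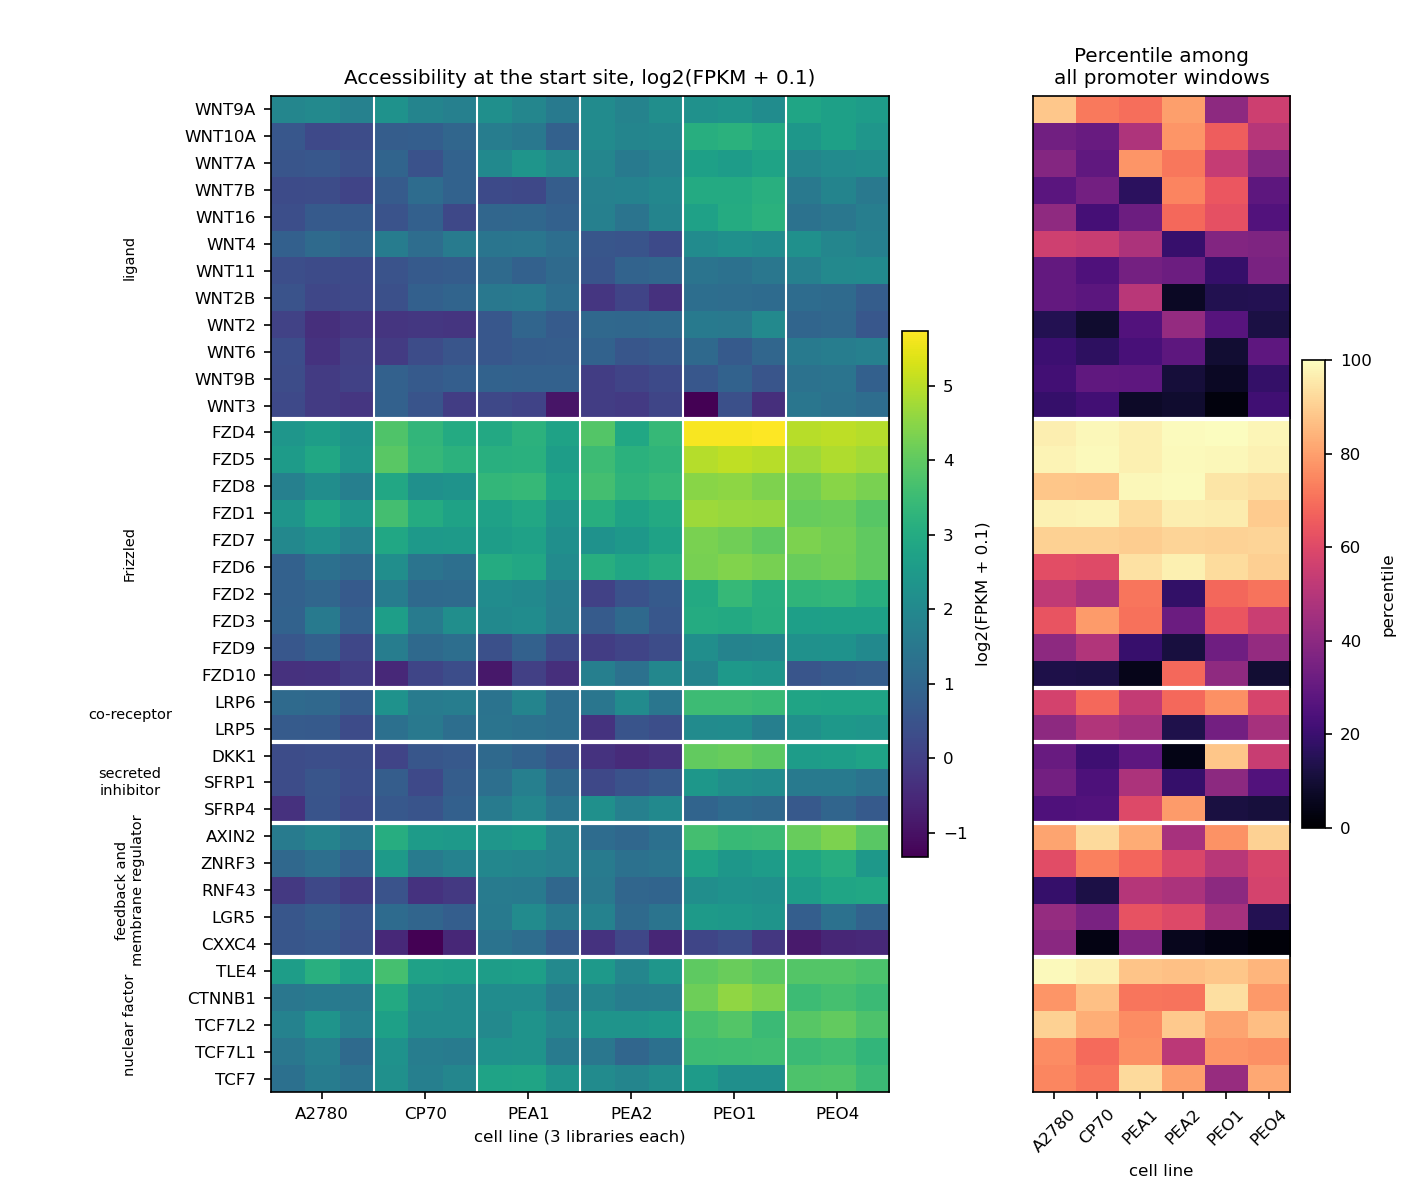
Accessibility of the 37 start windows as log2(FPKM + 0.1) in each of the 18 libraries (left, 3 columns a line) and as the percentile of the line mean among the 16997 promoter windows of that line (right), with genes grouped by role and ordered by mean. FZD4, FZD5, FZD1, FZD7 and FZD8 stand at the 87.8th percentile or above in every line, and DKK1 runs from the 4.10th in PEA2 to the 88.1st in PEO1.

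Within pairs, accessibility was compared on log2(FPKM + 0.1) with limma over every window whose mean exceeded 1 FPKM in the pair. A window was called at a log2 fold change beyond 2 with an adjusted p below 0.001, the thresholds of the study. A second call, beyond 1 with an adjusted p below 0.05, is named as such. Fold changes on this scale understate those of low windows. A window open in a single line of a pair could pass the filter through that line alone, so counts of members are read beside the share of all windows called by the same rule.

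Few windows of the table were called between CP70 and A2780, and none near WNT genes. Of 143 WNT windows tested, 0 were called with limma, nor were any with edgeR or limma-voom on the recovered reads, and 72 of the 143, or 50.3%, had an unadjusted p under 0.05 against 59.1% of all windows tested. Among all 37128 windows tested, 0.428% were called higher in CP70 and 0.369% lower. By the second call 3 of 41 promoter windows were higher, beside 9.36% of all promoter windows, and 0 were lower, beside 0.558%. Of the 96 distal windows 4 were higher, beside 12.7% of other windows, and 1 was lower, beside 1.44%. The median of all windows tested was shifted by 0.59 in log2 toward CP70, and after each library was centred on its median the second call gave 1 WNT window higher and 8 lower in place of 9 and 1. The windows higher by the second call included the start windows of AXIN2 and FZD3. The AXIN2 start window measured 2.95, 3.47 and 2.56 FPKM in A2780 and 8.26, 5.81 and 5.40 in CP70, without overlap, a change of 1.08 ± 0.30 (log2 fold change ± SE, adjusted p = 0.0022) that came to 0.50 after centring. It lost the second call without A2780 replicate 3 (0.97) or CP70 replicate 1 (0.89). The single lower window lay 28.6 kb from the start of WNT10A, beyond the gene, and its fall of 1.22 ± 0.25 (adjusted p = 2.7e-05) became 1.80 after centring.

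More windows were called in the other 2 pairs, nearly all of them distal. In PEA2, 16 of 212 WNT windows tested were called higher, 7.55% beside 11.2% of all windows, and 1 was called lower, 0.472% beside 1.42%. In PEO4, 4 of 229 were called higher, 1.75% beside 2.72%, and 9 lower, 3.93% beside 5.78%. In all 17 calls of the PEA pair and all 13 of the PEO pair the libraries of the 2 lines did not overlap. The call itself favours such separation, so it adds no separate evidence, and its share over all called windows is not given. In 15 and 10 of these calls the mean of the lower line was at or below 1 FPKM. The median change over all windows tested was 0.31 in PEA2 and −0.30 in PEO4. The split between higher and lower calls depended on the scaling, since 16 and 1 in PEA2 became 7 and 4 after median centring and 4 and 8 after quantile normalization, while 4 and 9 in PEO4 became 7 and 8, and 7 and 7. With the median of each 5 Mb bin removed they became 2 and 5 in PEA2, and 5 and 4 in PEO4. The split moved over the whole table as well. Of all called windows, 88.8% were higher in PEA2 without scaling. That share was 71.8% after centring, 58.7% after quantile normalization and 75.5% with bin medians removed. In PEO4 it was 32% without scaling, then 56.3%, 54.9% and 59.9%. By the second call 59 higher and 25 lower in PEA2 became 38 and 41 after centring, and 17 and 52 in PEO4 became 27 and 36. By the second call, 5 of 46 promoter windows were higher in PEA2 and 6 lower, beside 8.87% and 12.4% of all promoter windows, and 54 of 159 distal windows were higher and 18 lower, beside 36.2% and 8.29% of other windows. In PEO4 3 of 51 promoter windows were higher and 9 lower, beside 5.49% and 8.77%, and 14 of 169 distal windows were higher and 43 lower, beside 10.7% and 27.7%. The largest departure from these shares in PEO4 was at promoters called lower, 17.6% of the WNT windows beside the 8.77% above, a difference that was not tested. The median change of WNT windows in PEA2 was −0.13 at promoters and 0.45 at distal windows, beside −0.18 and 0.52 in the table, and in PEO4 −0.20 and −0.49, beside −0.06 and −0.40.

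**Figure D2:**
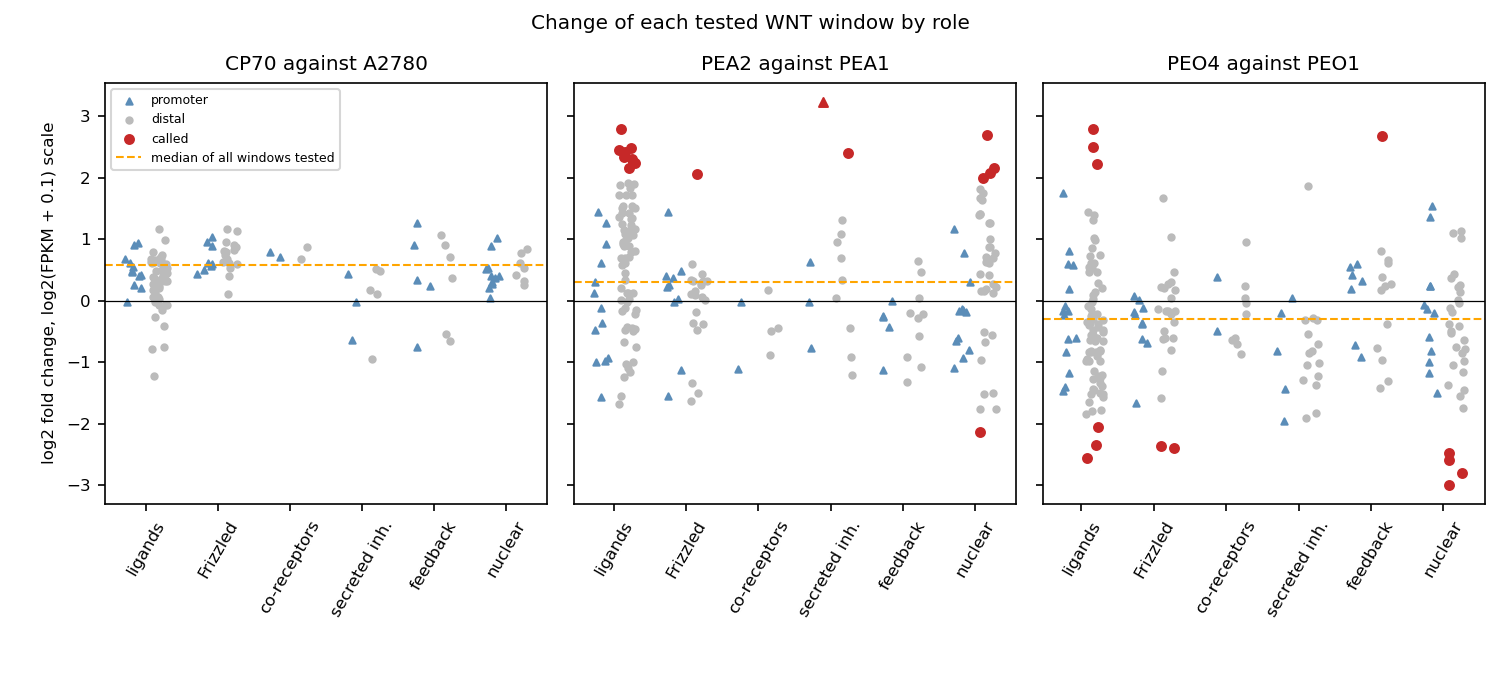
Log2 fold change, on the log2(FPKM + 0.1) scale, of each tested promoter (triangles) and distal (circles) WNT window in the 3 pairs, by role, with called windows in red and the median of all windows tested as a dashed line. The 9 promoter windows of other genes are left out. No window is called in CP70 against A2780, and the called windows of PEA2 lie mostly above 2 and those of PEO4 on both sides of 0.

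Ligand genes, which hold 104 of the 253 windows, had 9 of 76 tested distal windows called higher in PEA2, and 3 higher and 3 lower of 77 in PEO4. Nuclear factors had 5 called of 38 and 4 of 31. Among all windows of the table outside promoters, 7210 of 50392 were called higher in PEA2 and 836 lower. In PEO4 2041 of 61196 were called higher and 4337 lower. The WNT7B windows moved in opposite directions in the 2 pairs. Its start window measured 1.09, 1.06 and 1.58 FPKM in PEA1 and 3.30, 3.41 and 3.77 in PEA2, then 7.89, 7.85 and 8.58 in PEO1 and 2.79, 3.503 and 2.79 in PEO4, with no overlap in either pair. The change was 1.44 ± 0.24 in PEA2 (adjusted p = 4.3e-09) and −1.40 ± 0.15 in PEO4 (adjusted p = 2.4e-10), both past the second call. The same held away from the start. All 16 windows tested in the PEA pair were higher in PEA2, 5 of them called, and all 13 tested in the PEO pair were lower in PEO4, 3 of them called. The window 65.7 kb from the start, chr22:46306800-46307800, was called in both pairs, with 0.48, 0.28 and 0.34 FPKM in PEA1, 2.91, 2.25 and 1.95 in PEA2, 5.97, 6.28 and 4.79 in PEO1 and 0.70, 1.54 and 1.00 in PEO4. Its change was 2.41 ± 0.29 and −2.35 ± 0.22 (adjusted p = 4.7e-16 and 9.5e-12). The neighbourhood moved as well. Over the 5 Mb bin of chromosome 22 that holds WNT7B, the median change of all windows was 1.63 in PEA2 (169 windows) and −1.44 in PEO4 (161 windows). With the bin median removed, the median over the WNT7B windows was 0.01 and −0.07, the start window turned to −0.19 and 0.05, and the window at 65.7 kb kept 0.79 and −0.91, with no call. Copy number was not measured, and its part in the result was not tested.

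The other called ligand windows in PEA2 lay near WNT9A, WNT2, WNT5A and WNT5B. WNT9A, a ligand of joint and limb development, rose in the intron 1 window printed above. It measured 1.12, 1.28 and 1.39 FPKM in PEA1 and 8.08, 7.11 and 7.32 in PEA2, a rise of 2.48 ± 0.23 (adjusted p = 5.2e-26) beside a bin median of −0.01. PEO1 measured 9.92 to 10.1 FPKM and PEO4 4.94, 5.95 and 6.08, and A2780 and CP70 stayed at or below 1.27. The libraries of PEO1 and of PEO4 did not overlap those of PEA2. In the limma fit over 6 lines, with its shared spread, their adjusted p against PEA2 was 0.063 and 0.073. A window beyond the 3′ end of WNT2, a ligand needed for lung development, rose from 0.22, 0.22 and 0.19 FPKM in PEA1 to 2.42, 1.97 and 1.82 in PEA2, by 2.79 ± 0.33 (adjusted p = 1.3e-16, bin median 0.92), while its start window had 1.60 and 1.99 FPKM and was not called. It measured 3.23 to 4.25 FPKM in PEO1 and 0.82 to 1.49 in PEO4. The sole window near WNT5A, a ligand best known for β-catenin-independent signalling, lay in intron 1 and rose from 0.45, 0.31 and 0.14 FPKM to 2.36, 1.16 and 1.77, by 2.24 ± 0.32 (adjusted p = 3.0e-11, bin median 0.24). The WNT5B window 88.2 kb upstream of the canonical start, within the span of longer transcripts, rose from 0.45, 0.19 and 0.24 FPKM to 2.25, 1.79 and 1.86, by 2.45 ± 0.31 (adjusted p = 4.8e-14), where the 5 Mb bin had a median of 1.42.

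In PEO4 the 3 windows called higher near ligands were neighbours in exon 4, the last exon, of WNT3A, the ligand most used to activate canonical signalling in culture. The middle of them, chr1:228247200-228248200, measured 1.92, 1.40 and 1.34 FPKM in PEO1 and 10.9, 11.998 and 10.9 in PEO4. The change was 2.80 ± 0.16 (adjusted p = 3.5e-17) where the bin median was −0.21. PEA2 was the next most open line there at 5.09 ± 0.31 FPKM (SD, n = 3), against 2.14 ± 0.50 in PEA1, past the second call (1.24 ± 0.23, adjusted p = 2.2e-07). WNT3A had no window over its start. WNT3 rose at its start in PEO4, from 0.30, 1.22 and 0.67 FPKM to 2.62, 2.45 and 2.19, by 1.76 ± 0.31 (adjusted p = 6.2e-06, second call), and WNT16 fell there by 1.46 ± 0.16 (adjusted p = 3.5e-10, second call), in a bin with a median of −0.97 whose removal left −0.49 and no call. WNT2B, whose start fell by 1.57 ± 0.25 in PEA2 (adjusted p = 1.3e-09), lay in a bin with a median of −1.003.

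Receptor genes changed at FZD10 above all. FZD10, a receptor with little expression in most adult tissues, was called at its start window in PEA2, where the libraries rose from 0.45, 0.90 and 0.67 FPKM to 3.19, 2.37 and 3.77, by 2.07 ± 0.25 (adjusted p = 1.5e-15, bin median 0.13). Without PEA1 replicate 1 or PEA2 replicate 3 the change was 1.84 or 1.92, under the threshold of 2. In PEO4 the same window fell from 3.54, 5.41 and 5.02 to 1.34, 1.49 and 1.59, by 1.58 ± 0.20 (adjusted p = 9.0e-09, second call). Further upstream, windows at 7.01 and 6.11 kb from the start were called lower in PEO4. The first of these measured 3.04, 2.79 and 2.45 FPKM in PEO1 and 0.58, 0.53 and 0.30 in PEO4, a fall of 2.36 ± 0.29 (adjusted p = 6.9e-09). All 4 windows of the gene fell past the second call in PEO4, and the 2 tested in PEA2 rose past it. Among the other receptors FZD2 fell at its start in PEA2 by 1.56 ± 0.23 (adjusted p = 1.6e-10) and FZD3 by 1.13 ± 0.23 (adjusted p = 3.2e-06), in bins with medians of −0.87 and −1.08. FZD3 had risen in CP70 by 1.03 ± 0.28 (adjusted p = 0.0015), which came to 0.46 after centring and fell below the second call without A2780 replicate 1 (0.94), A2780 replicate 3 (0.91) or CP70 replicate 1 (0.79). FZD1, FZD4, FZD5, FZD6, FZD7 and FZD8, the 6 with the highest means, passed neither call at their start in any pair. Of the co-receptors LRP5 fell in PEA2 by 1.12 ± 0.24 (adjusted p = 1.5e-05, second call, bin median −0.55, lost without PEA2 replicate 1 at −0.87), and LRP6 passed neither call at its start.

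Secreted inhibitors gave the largest single rise among all WNT windows. It lay in a promoter window of DKK2 that starts an alternative transcript 247 kb upstream of the canonical start, chr4:108204300-108205300. The libraries measured 0.22, 0.22 and 0.29 FPKM in PEA1 and 3.85, 2.83 and 2.80 in PEA2, an increase of 3.24 ± 0.29 (adjusted p = 1.2e-27) against a bin median of −0.46. It was open in PEO1 too, at 4.45, 2.79 and 4.68, and lower in PEO4, at 0.76, 1.10 and 0.95 (−1.96 ± 0.23, adjusted p = 3.0e-09, second call). A2780 and CP70 stayed at or below 0.36 FPKM. DKK2 can act as an antagonist or, with LRP6, as a weak agonist. At DKK1 the start and a window 4.76 kb from it, past the end of the gene, parted in PEA2. The start fell by 1.20 ± 0.27 (adjusted p = 2.9e-05, second call), from 2.02, 1.78 and 1.39 FPKM to 0.71, 0.64 and 0.71, while the downstream window rose by 2.41 ± 0.28 (adjusted p = 2.1e-16), from 0.45, 0.47 and 0.24 to 2.42, 2.43 and 2.40. The bin median there was 1.32. In PEO4, where the bin median was −0.50, both were lower, the start by 1.37 ± 0.12 (adjusted p = 1.1e-12) and the downstream window by 1.92, and 4 of the 5 DKK1 windows passed the second call.

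Feedback and membrane regulators held a single called window. Lying 41.6 kb from the AXIN2 start, past the end of the gene, chr17:63515700-63516700 measured 3.72, 3.02 and 2.54 FPKM in PEO4. In PEO1 it measured 0.30, 0.44 and 0.45, and across the 15 libraries of the other 5 lines 0.0444 to 0.68. No library outside PEO4 came near it, and the rise over PEO1 was 2.69 ± 0.29 (adjusted p = 3.2e-10), resting on 51 to 64 reads in PEO4 and 3 to 5 in PEO1. The 5 Mb bin of AXIN2 had a median of 0.43 in this pair. At the AXIN2 start, PEO4 was the most open line (17.1, 20.3 and 15.1 FPKM, the 90.6th percentile), then PEO1 (12.1, 10.7 and 11.03), and PEA2 the least (2.14, 1.97 and 2.35, the 46.8th). In the limma fit over 6 lines PEA2 and A2780 did not differ beyond its shared spread (adjusted p = 0.052), nor did PEA1 and CP70 (adjusted p = 0.068). PEO1 and PEO4 did (adjusted p = 0.011), and in the limma fit of their pair alone the adjusted p was 9.3e-06. Within pairs the AXIN2 start fell in PEA2 by 1.08 ± 0.23 (adjusted p = 6.8e-06, second call, bin median −0.74), and lost that call without PEA1 replicate 2 (−0.94). LGR5, the R-spondin receptor of intestinal and ovarian-surface stem cells, fell at its start in PEO4 from 5.67, 5.32 and 4.90 FPKM to 1.63, 2.40 and 1.79, by 1.42 ± 0.18 (adjusted p = 1.2e-08, second call), in a bin with a median of −0.82 whose removal left −0.60 and no call. CXXC4 fell in PEA2 by 1.32 ± 0.26 (adjusted p = 1.3e-06, second call, bin median −0.46). RNF43 and ZNRF3 passed neither call at their starts.

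Nuclear factors held 4 windows called higher and 1 lower in PEA2, and 4 lower in PEO4. TLE4, a Groucho co-repressor that the study lists among genes lower in expression in the resistant lines of these pairs, and so not an independent choice, passed neither call at its start in any pair, with 14.2, 14.3 and 13.3 FPKM in PEO4 against 15.7, 17.3 and 15.4 in PEO1 (−0.21). Its called windows lay in introns. In intron 5, 52.9 kb from the start, it measured 2.63, 2.70 and 2.45 FPKM in PEO1 and 0.23, 0.19 and 0.30 in PEO4, a fall of 2.99 ± 0.33 (adjusted p = 6.8e-10). The neighbouring window and another 39.4 kb from the start, in intron 4, were also called lower, by 2.48 and 2.60. A window next to the latter, 38.5 kb from the start, kept 2.21 to 2.34 FPKM in PEO4 against 3.23 to 3.44 in PEO1 (−0.53) and was not called. The intron 5 window was called higher in PEA2, from 0.35, 0.37 and 0.29 FPKM to 1.76, 1.503 and 2.04 (2.09 ± 0.31, adjusted p = 9.9e-11). In A2780 and CP70 it stayed at or below 0.24. The bin medians were 0.21 in PEA2 and −0.49 in PEO4.

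TCF7L2, the TCF factor most used in colon and many epithelia, had 25 windows, the most of any member. In PEA2, 21 of the 23 tested were higher and 3 were called, all in introns 4 and 5. The window 68.4 kb from the start measured 0.22, 0.40 and 0.43 FPKM in PEA1 and 3.63, 2.25 and 2.62 in PEA2, a rise of 2.70 ± 0.28 (adjusted p = 8.0e-21). It was at or below 0.76 FPKM in each library of the other 5 lines. The one at 95.4 kb rose by 2.17 ± 0.26 (adjusted p = 3.2e-16), to 2.98 FPKM in PEA2 against at most 0.58 in any other line. Here again the 5 Mb bin had a median of 1.40, and with it removed the changes were 1.30 and 0.76 and the median over TCF7L2 windows −0.54. TCF7L1, a TCF that mostly represses, gave the sole lower call in PEA2, 28.4 kb from the start in intron 3, from 2.95, 3.21 and 2.40 FPKM to 0.55, 0.75 and 0.44. The fall of 2.13 ± 0.26 (adjusted p = 1.4e-15) came to 1.98 without PEA2 replicate 3, under the threshold. The CTNNB1 window 68.6 kb from the start, past the gene and within ULK4, a neighbouring gene, had the highest level of any called window. It measured 12.04, 9.95 and 14.3 FPKM in PEO1 and 1.63, 1.92 and 1.39 in PEO4, and at most 4.34 in any library of the other lines. The fall was 2.80 ± 0.16 (adjusted p = 3.5e-17), beside a bin median of −0.90, and which of the 2 genes this window belongs to cannot be told from these data. TCF7 rose at its start in PEO4, from 5.77, 4.45 and 4.46 FPKM to 13.5, 13.6 and 11.1, by 1.37 ± 0.13 (adjusted p = 2.6e-11, second call, bin median 0.77). LEF1 had 1 window, at an alternative start, with 0.60 to 3.49 FPKM over the 18 libraries, and it fell in PEA2 by 1.09 ± 0.24 (adjusted p = 1.6e-05, second call).

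**Figure D3:**
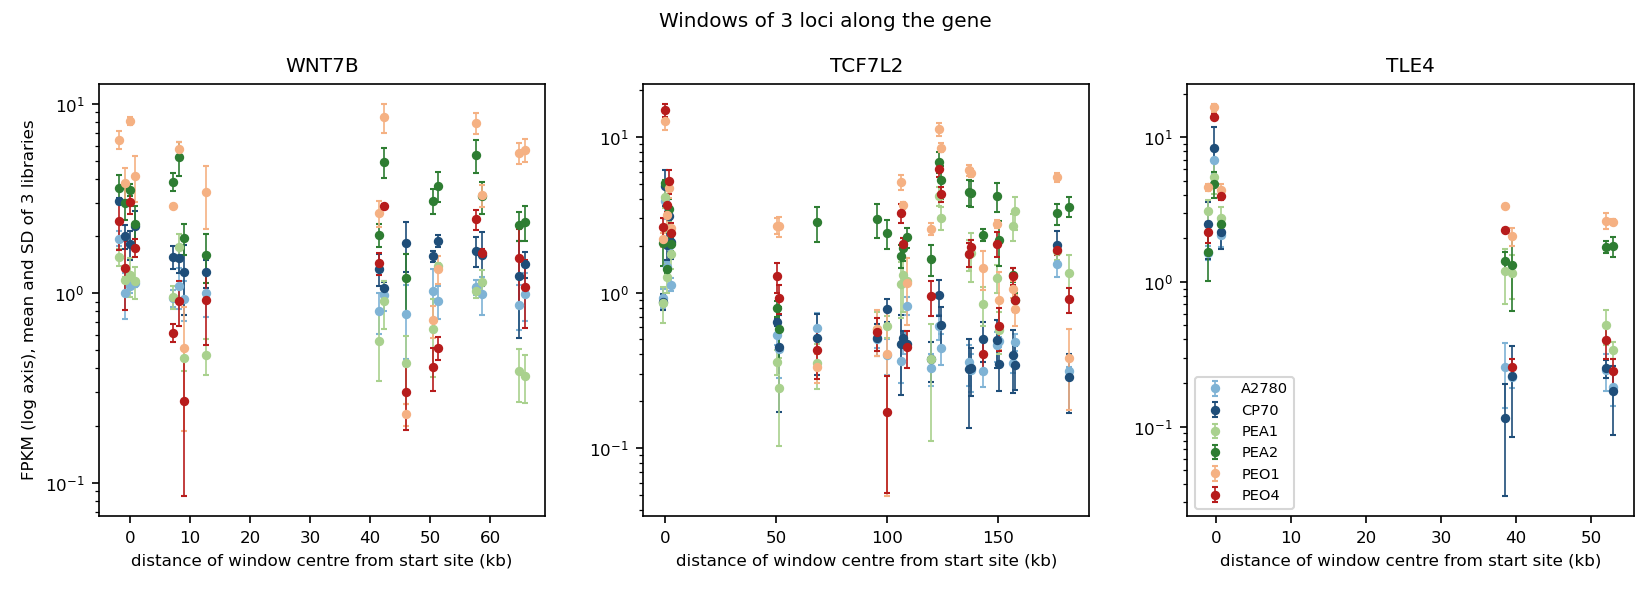
Accessibility in FPKM (log axis, mean and SD of 3 libraries) of every window of WNT7B, TCF7L2 and TLE4 against the distance of its centre from the canonical start in kb, for the 6 lines. At WNT7B PEA2 lies above PEA1 and PEO4 below PEO1 at each window tested, and at TLE4 the lines separate in the introns, where PEO4 falls to 0.24 FPKM at 52.9 kb against 2.60 in PEO1.

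**Figure D4:**
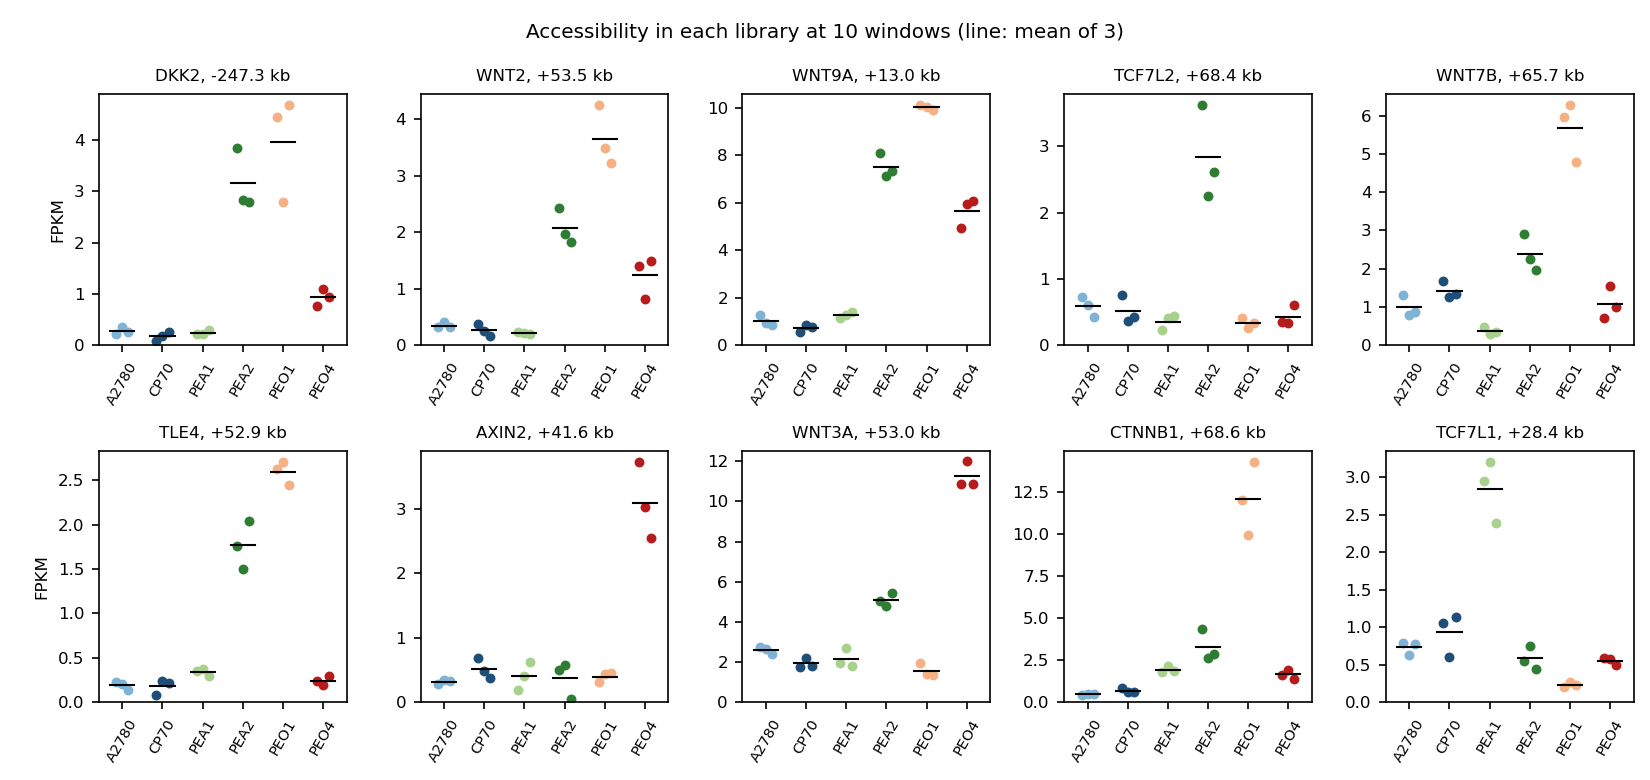
FPKM in each of the 18 libraries (points) and the mean of 3 (bar) at 10 WNT windows, titled by gene and distance from the canonical start. AXIN2 at 41.6 kb is open in PEO4 alone (2.54 to 3.72 FPKM), TCF7L2 at 68.4 kb in PEA2 alone (2.25 to 3.63), and DKK2, WNT2 and TLE4 are higher in PEA2 and PEO1 than in the other lines, while WNT9A is open in PEA2, PEO1 and PEO4.

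Whether pairs changed differently was tested directly, on the difference between their changes. The PEA and PEO changes differed in 62 of 247 WNT windows, 25.1% beside 26.6% of the table. In 55 of the 62 the PEA change was the higher, beside 82.8% of such windows of the table. That table share was 47.4% after median centring. The WNT split after centring is not given, so 55 of the 62 is to be read beside 82.8% only. Of 189 WNT windows tested in both pairs, 50.8% had a fitted change above 0 in the PEA pair and below 0 in the PEO pair, beside 43.0% of the windows of the table tested in both, and 22.8% moved the other way, beside 22.3%. The changes of A2780 and PEA differed in 14 of 200 windows, 7% beside 12.8%, and those of A2780 and PEO in 21 of 221, 9.5% beside 8.12%, the A2780 and CP70 libraries being shared by both tests. For the TLE4 intron 5 window the PEA change exceeded the PEO change by 5.08 ± 0.41 (adjusted p = 1.5e-14), for the DKK2 promoter by 5.19 ± 0.36 (adjusted p = 8.3e-17) and for the WNT7B window at 65.7 kb by 4.76 ± 0.36 (adjusted p = 1.4e-15). On the line means of the 3 pairs, 0 of 231 were called between resistant and sensitive lines by limma, beside 0% of the 74141 tested in the table. With 6 line means and a term for the pair, this fit had little left from which to estimate spread. It therefore cannot show that no WNT window changed alike in the 3 pairs. An unadjusted p under 0.05 was reached by 1 of the 231, or 0.433%, beside 1.38% of the table, and the smallest adjusted p was 1.00. Across the 6 lines, 144 of 231 WNT windows differed with a range of line means beyond 2 in log2. That is 62.3%, beside 71.4% of the table. Among WNT promoter windows 25 of 51 did so, beside 10483 of the 16710 promoter windows tested in the table.

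Windows that set a line apart, chosen as the distal windows with the largest excess of that line over the highest of the other 5, are given as a description. In PEO4 these were the AXIN2 window at 41.6 kb (3.09 FPKM against at most 0.51) and a window 5.13 kb upstream of FZD6 (2.98 against at most 0.86). For PEA2 they were the TCF7L2 windows at 95.4 and 68.4 kb, and for PEO1 the CTNNB1 window at 68.6 kb and the FZD10 window 7.01 kb upstream. PEA1 had a TCF7L2 window at 157 kb (3.33 FPKM against at most 0.89) and a WNT2B window in exon 5, 14.1 kb from the start (3.31 against at most 1.07). CP70 led by little, at 1.83 FPKM in WNT7B exon 3 against at most 1.20 in another line and at 1.91 in DKK3 against 1.73. A2780 led in none of the 193, its nearest being a DKK2 window 1.97 kb past the start with 2.10 FPKM against 2.23 in PEA1. These leads were taken on unscaled FPKM. The median of all windows was 0.68 FPKM in A2780 and 0.85 in CP70, against 2.85 in PEO1. The table also holds only windows above 2 FPKM in at least 2 libraries. Whether the leads hold after scaling was not tested.

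Other pathway genes, 55 that are not among the members, had 49 start windows. In CP70 6 of 43 tested passed the second call upward and 0 downward, beside 9.36% and 0.558% of all promoter windows. In PEA2 4 of 49 passed it upward and 9 downward, beside 8.87% and 12.4%, and in PEO4 2 of 45 upward and 4 downward, beside 5.49% and 8.77%. A start window can fall outside the promoter class, as 16 of the 37 member ones did. How many of the 49 did so was not counted, so the promoter shares are only a rough background. AXIN1, the scaffold of the destruction complex, was called lower in PEA2, at 1.60 FPKM against 15.5 in PEA1 and 17.5 and 19.97 in PEO1 and PEO4 (−3.18 ± 0.23, adjusted p = 8.1e-42), in a 5 Mb bin with a median of −1.81. PTK7, a pseudokinase co-receptor of planar polarity, was called in both pairs, lower in PEA2 (−2.09 ± 0.24, adjusted p = 3.3e-17) and higher in PEO4 (2.19 ± 0.21, adjusted p = 2.0e-11), with bin medians of −0.49 and 1.15. PRICKLE2, another planar polarity gene, was called higher in PEO4 (2.34 ± 0.38, adjusted p = 1.2e-06) and passed the second call upward in PEA2 (1.98 ± 0.27, adjusted p = 6.2e-13), with bin medians of −0.22 and 0.69. FRZB, a secreted inhibitor, passed the second call upward in PEA2 (1.74 ± 0.23, adjusted p = 7.3e-13, bin median 0.85), and RSPO4, an R-spondin, downward in PEO4 (−1.22 ± 0.18, adjusted p = 3.2e-07), where the bin median was −1.17.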

How the data were processed

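ATAC-seq was measured in 18 libraries of 6 lines. The authors sequenced 100 bp paired ends on an Illumina HiSeq, aligned uniquely with Bowtie2 to hg19, marked duplicates with Picard, removed blacklisted regions, counted with featureCounts and deposited FPKM (their RPKM) per 1 kb window. Tool versions are not given in the sources used here. All 89428 windows exceed 2 FPKM in at least 2 libraries. Since windows share a length of 1001 counted positions, the deposited values act as library-scaled reads (RPM), and whole reads were recovered within 0.01 of a read, with library totals of 8963079 to 60435027. No replicate libraries were identical, and all were counted.

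GENCODE 44 lifted to GRCh37 gave spans and starts. limma 3.58.1 (R 4.3.3, trend) was fitted on log2(FPKM + 0.1) to all windows with a mean above 1 FPKM, within each pair, over the 4 lines of 2 pairs for differences between pairs, and over 6 lines. Resistant and sensitive lines were compared after averaging each line, with a term for its pair. Adjusted p-values are Benjamini-Hochberg over all windows tested. Alternatives were pseudocounts of 0.5 and 1, no filter, an upper depth limit, median centring, quantile normalization, removal of 5 Mb bin medians, thresholds of 1 and 0.05, edgeR 4.0.16 and limma-voom on recovered reads, spans of 0 and 50 kb, and leaving out each library. Scripts were tested on simulated data. WNT1 is not analysed here.

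Windows named are, per pair, direction and class, the 3 with the largest change among those called without overlap (none within 2 kb of another), all start windows, the 2 distal windows that most set each line apart, and windows called in more than 1 pair. Others named (WNT5A, WNT5B and DKK1 distal windows, FZD10 upstream, the remaining WNT3A, TLE4 and TCF7L2 windows, WNT10A) were chosen after their values were seen. The members and lists were chosen with earlier results of these data known.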

Additional observations from a re-analysis of the deposited data

Results flagged for a closer look

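Changes from sensitive to resistant line that differed between pairs are given as the change in the first pair minus that in the second, in log2, each past a difference of 2 with an adjusted p below 0.001 (limma). The PEA change exceeded the PEO change by 5.19 at the DKK2 promoter window 247 kb upstream, by 5.08 and 2.72 at the TLE4 windows 52.9 and 39.4 kb from the start, by 4.76 at the WNT7B window at 65.7 kb and by 2.84 at the WNT7B start, by 4.32 downstream of WNT2, by 3.65 at the FZD10 start, by 3.499 downstream of CTNNB1, by 3.30 in WNT9A intron 1 and by 2.15 at the WNT16 start. It was below the PEO change at TCF7L1 intron 3, where the difference was −3.12, and downstream of AXIN2, where it was −2.98.

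The A2780 change, from A2780 to CP70, exceeded the PEA change by 2.40 at TCF7L1, by 2.17 at the FZD3 start and by 2.16 at the AXIN2 start. At WNT9A intron 1 and TCF7L2 intron 4 the difference was −2.94 and −2.90. Against the PEO change, that of A2780 was higher by 3.27 downstream of CTNNB1, by 2.85 at the WNT7B window at 65.7 kb and by 2.08 at the WNT7B start. The difference was −3.21 in WNT3A exon 4 and −2.16 downstream of AXIN2. Some of these windows lay at or below 1 FPKM in every library of one pair, namely those of TCF7L2 and CTNNB1 in A2780 and CP70 and that of AXIN2 in all 4 lines of the A2780 and PEA pairs. Whether the WNT7B differences are particular to that gene was not tested, and the 5 Mb bin around it moved with them.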

How the results depend on the processing

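Counts of called WNT windows moved with the thresholds, the pseudocount, the scaling and the span. With a pseudocount of 0.5, 2 windows were called higher and 0 lower in PEA2, 1 higher and 3 lower in PEO4, and 4 and 7 differed between A2780 and PEA and between A2780 and PEO. With a pseudocount of 1 these were 0 and 0, 1 and 1, and 1 and 3, with 21 between PEA and PEO and 53 over the 6 lines. Median centring gave 7 higher and 4 lower in PEA2, 7 higher in PEO4, 12 between A2780 and PEO and 68 over the 6 lines, and quantile normalization gave 4, 8, 7, 12 and 72. With the 5 Mb bin median removed there were 2 higher and 5 lower in PEA2, 4 lower in PEO4, and 24, 8 and 10 for PEA with PEO, A2780 with PEA and A2780 with PEO. Of the single named values, 10 kept direction and call under that removal and 19 kept direction only. The WNT7B start then reversed, to −0.19 in PEA2 and 0.046 in PEO4. At thresholds of 1 and 0.05 the counts were 9 and 1 in CP70, 59 and 25 in PEA2, 17 and 52 in PEO4, 137, 84 and 102 between pairs, and 225 over the lines. A span of 0 kb gave 5 lower in PEO4 and 11 between A2780 and PEO, and a span of 50 kb gave 2 lower in CP70, 26 higher in PEA2, 10 higher and 17 lower in PEO4, 97, 22 and 43 between pairs, and 217 over the lines, from fewer or more windows. Between A2780 and PEA no filter gave 22, edgeR 23 and limma-voom 26, against 14. The cause of the other shifts was not tested. For the scalings, the share of all called windows that was higher in PEA2 and PEO4 is given above.

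Leaving out each library in turn gave 11 to 15 higher and 0 to 1 lower in PEA2, 3 to 6 higher and 8 to 13 lower in PEO4, 57 to 64, 11 to 19 and 16 to 22 between pairs, 138 to 154 over the lines, and 0 to 0 in CP70 and between resistant and sensitive lines. Deviations of same-numbered libraries had correlations of −0.412 to 0.0446. With 3 libraries a line these cannot decide whether a number marks a shared batch, and the labels do not say. The fit with a replicate block gave 16 higher and 1 lower in PEA2, 4 and 9 in PEO4 and 0 and 0 in CP70, as without it. Among the values of single named windows under alternatives, 407 kept direction and call, 74 kept direction only and 2 reversed. This tally pools all alternatives, and the losses were uneven. Of 31 named values, 15 kept direction only with a pseudocount of 0.5, 20 with a pseudocount of 1 and 19 with the bin median removed.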
